A study of Mus musculus with 10 samples.

Results

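Transcript levels of the proteasome genes were examined in hematopoietic stem cells (HSCs), the blood-forming stem cells of mouse bone marrow. The genes were taken by symbol, as all measured genes named Psma, Psmb, Psmc, Psmd or Psme followed by a number, with the immune core represented by Psmb10 alone and a level above 0 on the log2 scale in at least 2 libraries. This gave 42 genes of 20270 listed and of 15143 that passed the same filter on low values. All 42 were above 0 in all 10 libraries, and the lowest single value was 3.51, so the filter removed no gene and none lay just outside it. One of them, Psmc3ip, matches the symbol pattern without being a proteasome subunit and is described after the others.

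The libraries were made from HSCs purified by fluorescence-activated sorting from the marrow of C57BL/6 mice that had received lineage-depleted (Lin-) bone marrow cells of Id1-/- (KO) or Id1+/+ (WT) donors. The 4 groups were KO-labelled stressed (2 libraries), WT-labelled stressed (2), KO-labelled normal (3) and WT-labelled normal (3). All cells had been through transplantation, sampled 4 weeks afterwards by the sample labels and 6 weeks by the series design. The labels define neither stressed nor normal, and give neither the ages of donors and recipients nor the genotype of the recipients.

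Replicates are lettered A to C, and nothing states whether they came from separate animals or pools, so p-values measure only the spread between these libraries. Estimated depth was 25700000 to 33000000 reads per library, at which 1 CPM (reads scaled to a common library total) stands for 26 to 33 reads. The targeted gene Id1 was at 8.44 to 9.06 CPM in KO-labelled stressed libraries and 1.28 to 4.39 CPM in WT-labelled stressed ones. It was at 9.62 to 13.2 CPM in KO-labelled normal libraries and 1.35 to 3.17 CPM in WT-labelled normal ones. It was thus higher in both KO-labelled groups, and every direction of KO against WT below follows the labels only. KO-labelled normal library A and WT-labelled stressed library A stood apart in a principal component analysis of all genes, so counts that rest on them are also given without them. Of 9 HSC marker genes (among them Kit, Procr, Hlf and Mecom), all 9 were measured and none was at the lowest deposited value in any library.

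The proteasome is the protease complex that degrades most proteins marked with ubiquitin chains. Its core is a barrel of stacked rings, in which alpha subunits (Psma genes) form the outer gates and beta subunits (Psmb genes) the inner rings, some of them with the cutting sites. A regulatory cap sits on the ends of the barrel: its base holds a ring of ATPases (Psmc genes) and non-ATPase scaffolds and ubiquitin receptors, and its lid removes ubiquitin from the substrate. Interferon can replace the catalytic beta subunits by immune forms such as Psmb10, and activators (Psme genes) can take the place of the cap without a need for ATP. Blood stem cells are known for a low rate of protein synthesis and a dependence on protein quality control.

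Across the 42 genes the levels of a gene varied little between libraries, and the 3 WT-labelled normal libraries were the low end. The mean of the WT-labelled normal group was the lowest of the 4 group means in 37 of 42 genes, against 25.6% of all genes tested. The exceptions were Psmd1, Psmd5 and Psme4, lowest in the KO-labelled normal group, Psmd2, lowest in the WT-labelled stressed group, and Psmd9, lowest in the KO-labelled stressed group. With each gene set to its own mean over 10 libraries, the median over the 42 genes was 0.085 and 0.091 log2 units in the KO-labelled stressed libraries and 0.083 and 0.011 in the WT-labelled stressed ones. It was 0.140, 0.011 and 0.030 in KO-labelled normal libraries and -0.167, -0.142 and -0.119 in WT-labelled normal ones. All 3 WT-labelled normal libraries were below all 7 others, which lay within 0.13 log2 units of each other. KO-labelled normal library A held the highest value of 17 of the 42 genes, and no WT-labelled normal library held the highest value of any.

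**Figure D1:**
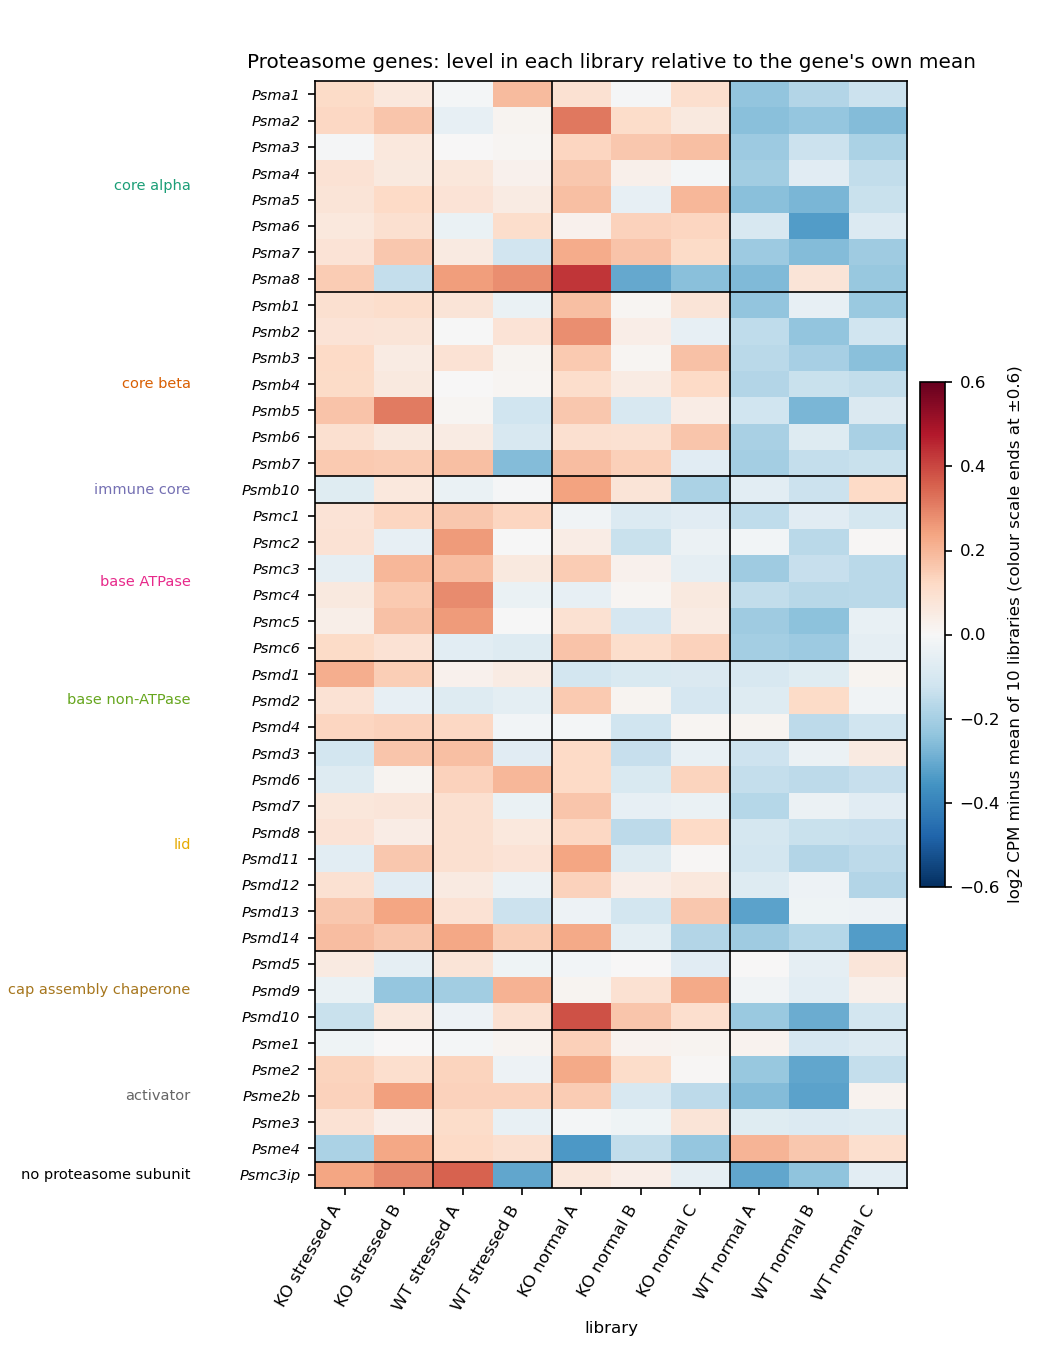
Colour shows log2 CPM of each gene in each library minus the mean of that gene over 10 libraries (red above, blue below, scale ending at 0.6 either way), with genes in rows by role and libraries in columns by group. The WT-labelled normal columns are blue in most rows, with Psme4 as a visible exception, and the KO-labelled normal library A is the reddest column, holding the highest value of 17 genes.

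The differences between groups were small, and few passed the test gene by gene. Each was tested as a difference of group means on the log2 scale in a limma model of all genes, with p-values adjusted over all 15143 genes and a gene called at an adjusted p under 0.05. In KO-labelled against WT-labelled normal HSCs, 3 of 42 genes rose (Psma2, Psma3 and Psma7) and none fell, where 1.56% of all genes were called, 1.23% as higher and 0.324% as lower. The median difference of the 42 genes was 0.20, against -0.01 over all genes (quartiles -0.20 and 0.18), and 39 of 42 were above 0. An unadjusted p under 0.05 was reached by 21 of 42 (50%), against 13.9% of all genes. The 3 KO-labelled libraries lay entirely above the 3 WT-labelled ones in 23 genes (54.8%), against 10.9% of all genes, and entirely below them in 1 gene, Psme4, against 8.64%. Without KO-labelled library A these counts were 24 genes above, against 15.7% of all genes, and again 1 gene, Psme4, below, against 14%. The median was then 0.15, with 34 of 42 above 0. In bulk RNA, fewer cells of a type and less RNA per cell cannot be told apart, and the deposited scale shows shares of each library only.

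In stressed HSCs the KO-labelled and WT-labelled groups gave no call among the 42 genes by limma, where 0.145% of all genes were called (0.0858% higher, 0.0594% lower), and 2 genes had an unadjusted p under 0.05, against 8.88% of all genes. The median difference was 0.03, with 25 of 42 above 0. The 2 KO-labelled libraries lay above the 2 WT-labelled ones in 11 genes, against 19.2% of all genes, and below them in 3, against 19.9%. Without WT-labelled library A, which leaves 1 library in that group, the counts were 23 above (34.7% of all genes) and 9 below (35.6%), with a median of 0.05 and 30 of 42 above 0. The median was also 0.05 without KO-labelled library A and was -0.0027 without WT-labelled library B.

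In KO-labelled HSCs, stressed against normal gave 1 of 42 genes that rose (Psmd1) and none that fell, where 4.5% of all genes were called (2.23% higher, 2.28% lower). The median was 0.02 with 24 of 42 above 0, and 2 genes had an unadjusted p under 0.05, against 17.9% of all genes. The stressed libraries lay above the normal ones in 5 genes (16.5% of all genes) and below them in 4 (16.6%). Without KO-labelled normal library A these were 14 (23% of all genes) and 5 (23.2%), with a median of 0.06 and 31 of 42 above 0. The median was -0.0081 without KO-labelled normal library B, 0.0016 without C and 0.0067 without KO-labelled stressed library A. In WT-labelled HSCs, 1 of 42 genes rose between stressed and normal libraries (Psmc1) and none fell, where 3.3% of all genes were called (1.55% higher, 1.75% lower), and in both genotype labels 1 call among 42 genes was close to the background. The median difference was 0.19, against 0.01 over all genes (quartiles -0.23 and 0.22), and 40 of 42 were above 0. An unadjusted p under 0.05 was reached by 20 of 42 (47.6%), against 16.8% of all genes. The stressed libraries lay above the normal ones in 25 genes (59.5%), against 19.7% of all genes, and below them in 0, against 16.7%. Without WT-labelled stressed library A these counts were 26 above (32.7% of all genes) and 2 below (29.7%), with a median of 0.15.

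The interaction, the stressed against normal difference in KO-labelled HSCs minus that in WT-labelled HSCs, tested whether the genotype labels differed in their response. No member passed by limma, where 0.0198% of all genes (3 genes) did (0.0132% above 0, 0.0066% below 0), and 8 of 42 had an unadjusted p under 0.05 (19.0%), against 9.15% of all genes. The median was -0.17, against 0.00 over all genes, and 34 of 42 were below 0. Removing KO-labelled normal library A and WT-labelled stressed library A together gave a median of -0.10. Groups that did not overlap, in opposite directions, were seen for KO against WT in the 2 conditions in 1 of 42 genes (2.38%), against 2.67% of all genes. For stressed against normal in the 2 genotype labels they were seen in 2 of 42 (4.76%), against 2.75% of all genes. The comparison of genotype labels in normal HSCs, that of conditions in WT-labelled HSCs and the interaction all use the same 3 WT-labelled normal libraries, so their values are not independent of each other.

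Proteasome genes are short. The median exonic length of the 42 genes was 2724.5 bases, against 3984 over all genes tested. With a smooth trend of the deviations over exonic length removed in each library, the median of KO against WT in normal HSCs was 0.12 in place of 0.20. That of stressed against normal in WT-labelled HSCs was 0.12 in place of 0.19, and that of the interaction -0.08 in place of -0.17. Psma2, Psma3 and Psma7 were still called in normal HSCs, and Psmc1 was not. Several role medians moved by over 1.5 times, and those that follow are examples. For KO against WT in normal HSCs they were then 0.20 in core alpha, 0.067 in the base ATPases, with 5 of 6 above 0, and 0.0092 in the base non-ATPases. In stressed against normal, core beta moved to 0.0067 in KO-labelled HSCs, with a changed sign, and to 0.069 in WT-labelled HSCs, with 6 of 7 above 0, and core alpha moved to -0.0083 in KO-labelled HSCs. The activators moved from 0.11 to 0.039 for KO against WT in normal HSCs, with 3 of 5 above 0. For stressed against normal in WT-labelled HSCs they moved from 0.11 to 0.071. In the interaction core beta moved from -0.17 to -0.062.

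**Figure D2:**
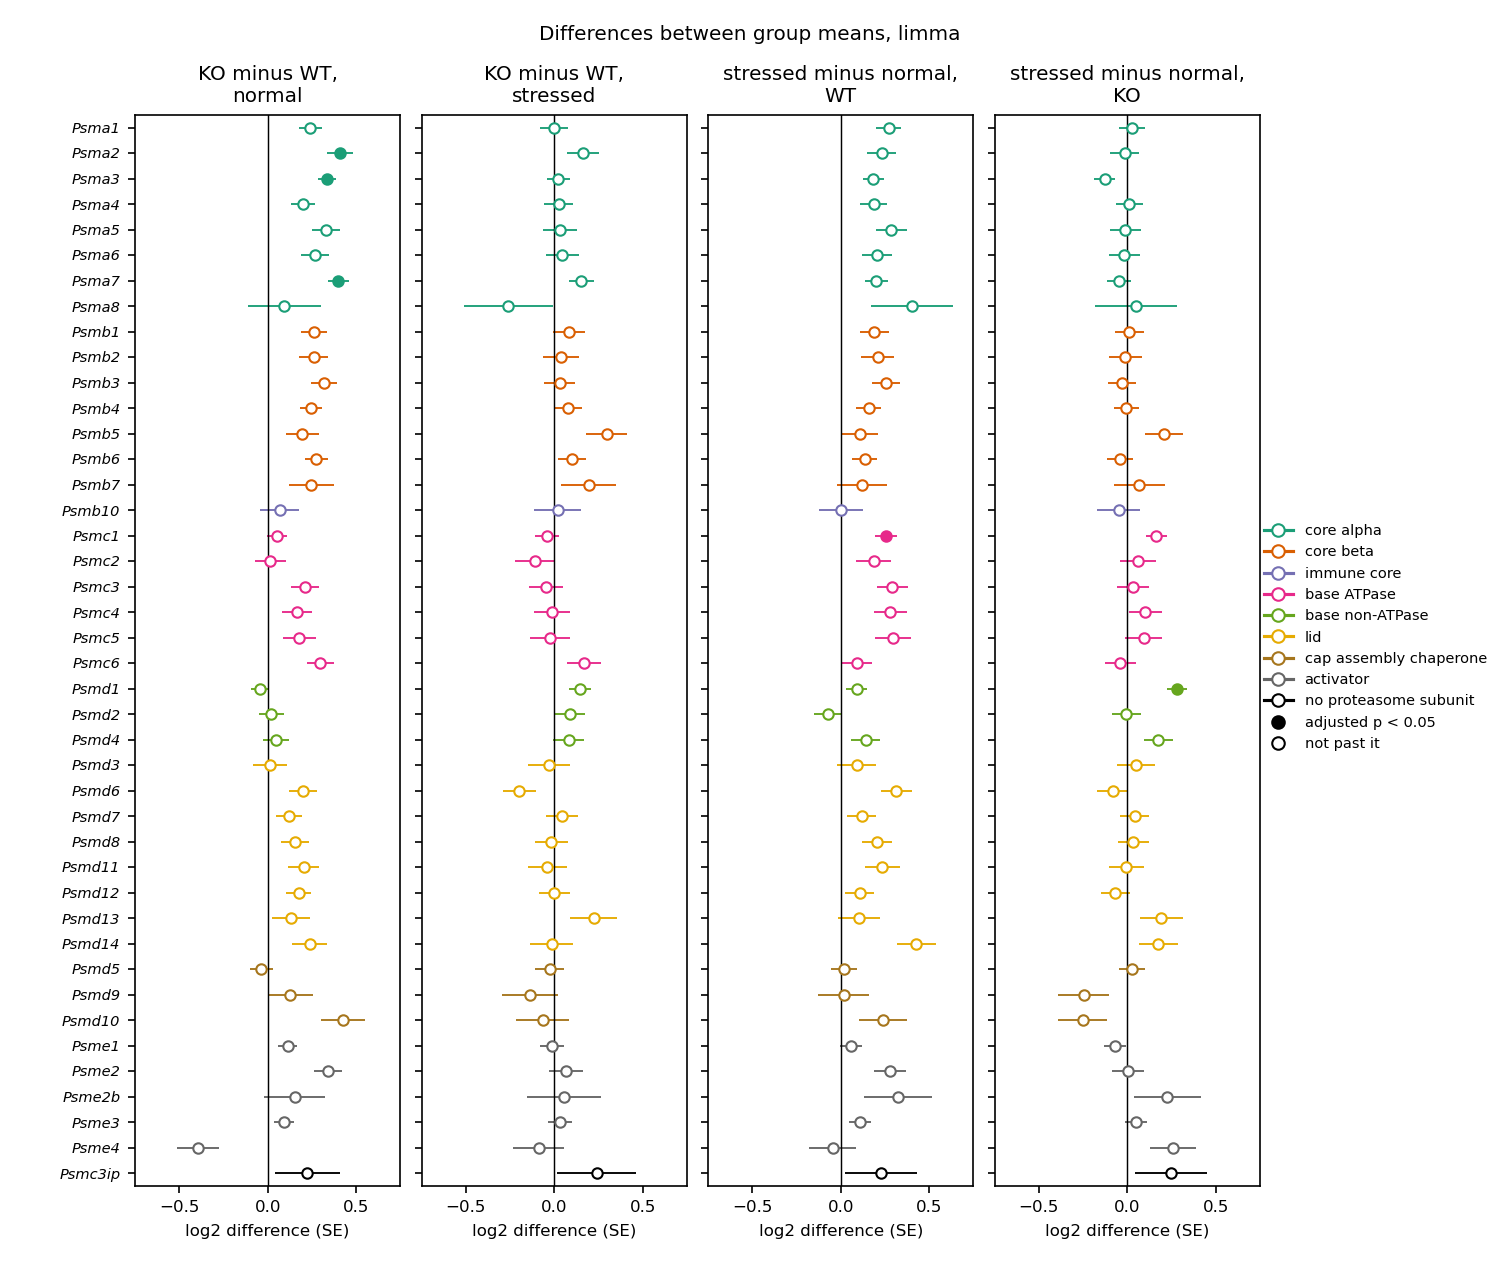
Points give the log2 difference between group means of each gene with its limma SE (horizontal line) in 4 comparisons, coloured by role, and filled points passed an adjusted p of 0.05. In the KO minus WT panel for normal HSCs 39 of 42 points lie right of 0 and 3 are filled, in the stressed minus normal panel for WT 40 lie right of 0, and in the other panels 25 and 24 do.

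Levels of different genes compare only per length, here as log2 CPM per kilobase (kb) averaged over the 10 libraries. By all annotated exonic bases the highest was Psma6, an alpha subunit, at 7.53 and the lowest Psmd9, a chaperone of base assembly, at 2.68. By the longest coding transcript of each gene the highest was Psme1, an activator subunit, at 8.18 and the lowest Psme4, the gene of the activator PA200, at 3.27. The order between depended on which length was taken, so neighbours in it were not set apart. By coding transcript the role medians were 7.19 for core alpha, 6.84 for core beta, 6.78 for the base ATPases, 6.53 for the base non-ATPases, 6.53 for the lid, 4.82 for the cap assembly chaperones and 6.88 for the activators. The chaperones, which leave the finished complex, were the lowest role group on either length.

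**Figure D3:**
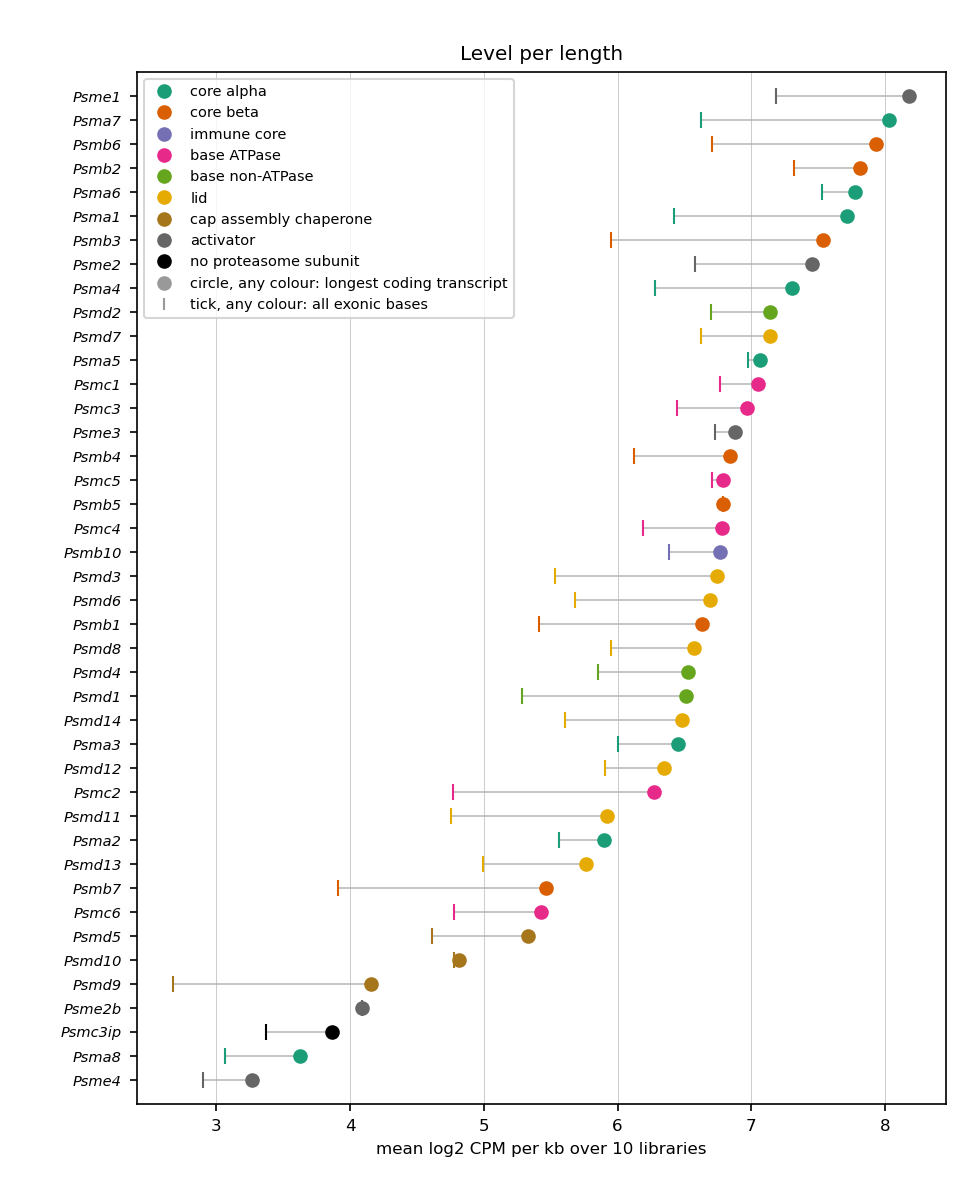
Mean log2 CPM per kb over 10 libraries is shown for each gene by the longest coding transcript (circles) and by all exonic bases (ticks), coloured by role and sorted by the circles. Core and base subunits lie mostly between 6 and 8 by transcript, while Psmd9, Psme2b, Psmc3ip, Psma8 and Psme4 lie under 4.2.

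The alpha ring held all 3 genes called in normal HSCs. KO against WT in stressed HSCs ranged from -0.26 to 0.16 with a median of 0.03. All 8 alpha genes were above 0 in KO-labelled against WT-labelled normal HSCs, with differences from 0.09 to 0.41 and a median of 0.30. Of the 8, 7 had an unadjusted p under 0.05, against 13.9% of all genes. In stressed against normal the 8 genes ranged from -0.13 to 0.05 with a median of -0.01 in KO-labelled HSCs, and from 0.18 to 0.40 with a median of 0.22 in WT-labelled HSCs. The interaction was below 0 in all 8, with a median of -0.25. The smallest difference in normal HSCs was that of Psma8, the testis form of an alpha subunit, named here after its values were seen, at 0.09 (limma SE 0.21, adjusted p = 0.90).

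Psma7 (ENSMUSG00000027566.14, chromosome 2, 180036374 to 180042433, minus strand, mm10) encodes an alpha ring subunit for which Psma8 is the germ cell counterpart. It had log2 CPM of 8.32 and 8.40 in KO-labelled stressed, 8.29 and 8.12 in WT-labelled stressed, 8.46, 8.41 and 8.35 in KO-labelled normal and 8.02, 7.98 and 8.02 in WT-labelled normal libraries. The WT-labelled normal libraries were the lowest 3 of 10, below both WT-labelled stressed libraries, and the KO-labelled normal libraries were all above them. Psma7 rose in KO-labelled normal HSCs, with a mean of 8.41 ± 0.06 (SD, n = 3) against 8.01 ± 0.03 (SD, n = 3) in WT-labelled ones, a difference of 0.40 (limma SE 0.06, adjusted p = 0.005). It differed by 0.15 (limma SE 0.07, adjusted p = 0.57) between stressed groups and by 0.20 (limma SE 0.07, adjusted p = 0.14) between stressed and normal WT-labelled HSCs.

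Psma3 (ENSMUSG00000060073.9, chromosome 12, 70974621 to 70996347, plus strand, mm10), an alpha ring subunit, had log2 CPM of 7.95 and 8.02 in KO-labelled stressed, 7.96 and 7.97 in WT-labelled stressed, 8.09, 8.12 and 8.14 in KO-labelled normal and 7.74, 7.83 and 7.77 in WT-labelled normal libraries. The KO-labelled normal libraries were the highest 3 of 10 and the WT-labelled normal libraries the lowest 3, with all 4 stressed libraries between them. It rose in KO-labelled normal HSCs, with a difference of 0.33 (limma SE 0.05, adjusted p = 0.007) from WT-labelled ones. Stressed against normal was -0.13 (limma SE 0.06, adjusted p = 0.28) in KO-labelled and 0.18 (limma SE 0.06, adjusted p = 0.13) in WT-labelled HSCs, with no overlap in either, in opposite directions. The interaction of Psma3 had the smallest p of the 42 genes and did not pass, at -0.31 (limma SE 0.08, adjusted p = 0.27).

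Psma2 (ENSMUSG00000015671.10, chromosome 13, 14613240 to 14674236, plus strand, mm10), the third called alpha ring subunit, had log2 CPM of 7.57 and 7.61 in KO-labelled stressed, 7.39 and 7.46 in WT-labelled stressed, 7.76, 7.55 and 7.50 in KO-labelled normal and 7.19, 7.21 and 7.18 in WT-labelled normal libraries. The WT-labelled normal libraries lay within 0.03 of each other and below all 7 others, and KO-labelled normal library A was the highest. Psma2 rose in KO-labelled normal HSCs, with a difference of 0.41 (limma SE 0.07, adjusted p = 0.018). This call was lost when any one of the WT-labelled normal libraries, A, B and C, was left out (adjusted p from 0.070 to 0.080), while those of Psma3 and Psma7 held without each library in turn.

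Psma1 and Psma6 also encode alpha ring subunits. Psma1 had log2 CPM of 8.09 and 8.04 in KO-labelled stressed, 7.97 and 8.17 in WT-labelled stressed, 8.07, 7.97 and 8.08 in KO-labelled normal and 7.75, 7.80 and 7.85 in WT-labelled normal libraries. Its WT-labelled normal libraries were below all 7 others, and its differences were 0.24 (limma SE 0.07, adjusted p = 0.11) for KO against WT in normal HSCs and 0.27 (limma SE 0.07, adjusted p = 0.077) for stressed against normal in WT-labelled HSCs, neither past the threshold. Psma6 had log2 CPM of 7.89 and 7.93 in KO-labelled stressed, 7.79 and 7.94 in WT-labelled stressed, 7.86, 7.97 and 7.96 in KO-labelled normal and 7.74, 7.50 and 7.75 in WT-labelled normal libraries. WT-labelled normal libraries A and C were close to WT-labelled stressed library A, and the difference of KO against WT in normal HSCs was 0.27 (limma SE 0.08, adjusted p = 0.14).

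**Figure D4:**
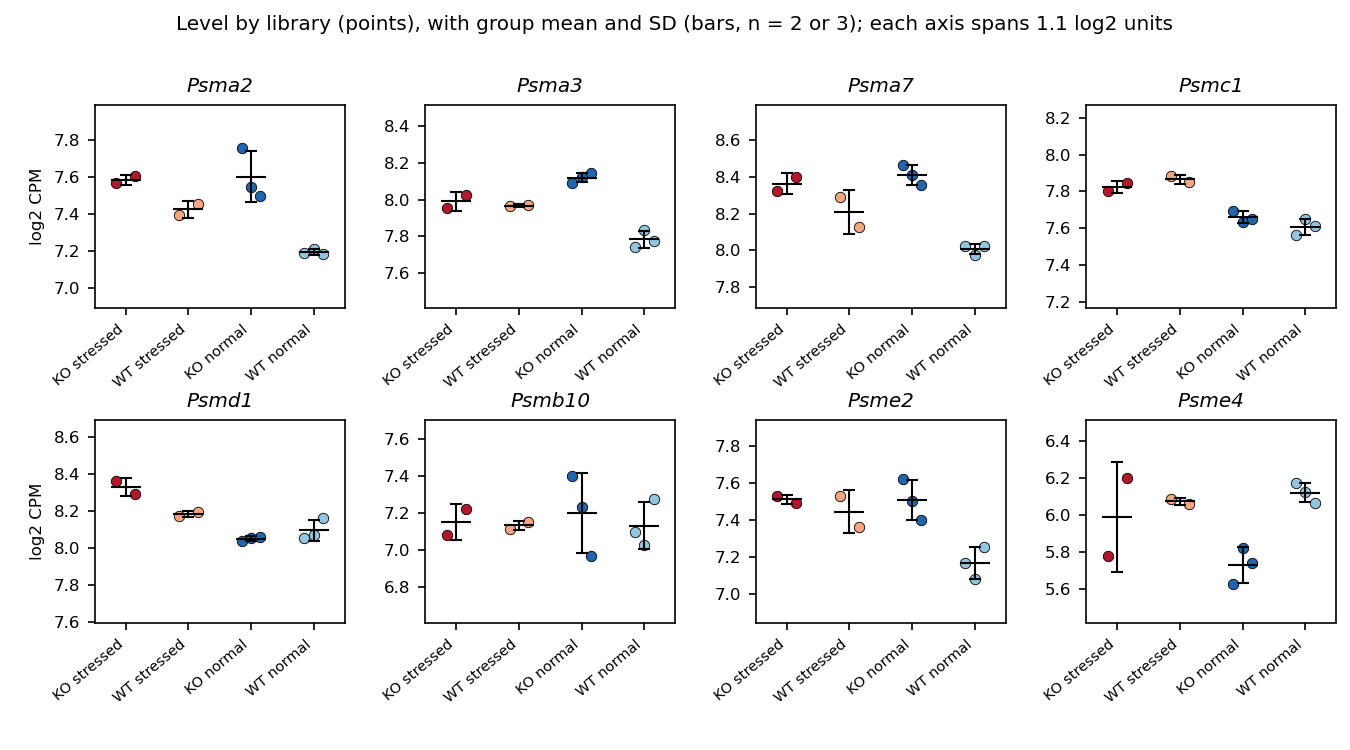
Log2 CPM of 8 genes in each library (points), with group mean and SD (bars, n = 2 stressed and 3 normal libraries), each panel spanning the same 1.1 log2 units. In Psma2, Psma3 and Psma7 the WT-labelled normal points are the lowest, in Psmc1 and Psmd1 the stressed points lie above the normal ones, Psmb10 overlaps in all groups, and in Psme4 the KO-labelled normal points lie below the WT-labelled normal ones.

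The 250 bases before the annotated starts of the 3 called alpha genes are shown because these genes rose together in KO-labelled normal HSCs. They come from RefSeq on GRCm38.p6, read 5′ to 3′ along the gene, with a CCAAT box in capitals. This short motif is bound in many promoters by the factor NF-Y.
Psma2 (chr13:14612992-14613241, plus strand): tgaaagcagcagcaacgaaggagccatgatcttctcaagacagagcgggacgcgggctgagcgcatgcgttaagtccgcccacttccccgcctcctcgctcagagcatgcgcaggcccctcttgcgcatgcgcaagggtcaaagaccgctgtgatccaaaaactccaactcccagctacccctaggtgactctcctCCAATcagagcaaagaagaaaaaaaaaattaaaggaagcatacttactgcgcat
Psma3 (chr12:70974373-70974622, plus strand): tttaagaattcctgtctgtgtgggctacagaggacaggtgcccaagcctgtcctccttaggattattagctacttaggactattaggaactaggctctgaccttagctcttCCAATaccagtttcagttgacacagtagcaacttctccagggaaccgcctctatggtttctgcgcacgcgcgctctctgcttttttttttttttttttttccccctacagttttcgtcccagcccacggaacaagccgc
Psma7 (chr2:180042465-180042714, minus strand): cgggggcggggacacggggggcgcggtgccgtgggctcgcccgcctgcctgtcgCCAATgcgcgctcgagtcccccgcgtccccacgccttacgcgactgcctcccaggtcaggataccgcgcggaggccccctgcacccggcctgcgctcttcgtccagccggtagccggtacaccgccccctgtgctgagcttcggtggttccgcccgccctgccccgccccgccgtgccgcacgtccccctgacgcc
The box begins at position -54 from the first transcribed base in Psma2, -139 in Psma3 and -196 in Psma7. The letters CCAAT were searched on both strands and found in 13 of 38 windows of 35 matched genes, against 33.8% of 32851 windows of this length over all genes, so their presence was close to the background. The core letters of the antioxidant response element, TGACNNNGC, to which the factors NRF1 and NRF2 bind, were searched likewise. They were found in 5 of 38 windows, against 10.2% of all windows, and no gene held both motifs. These 5 sites are shown because NRF1 is the best known activator of proteasome genes, with the element in capitals and up to 10 bases on either side.
Psmb5 (chr14:54618024-54618052, minus strand): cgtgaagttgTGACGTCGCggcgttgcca
Psmb6 (chr11:70525338-70525356, plus strand): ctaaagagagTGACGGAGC
Psmc6 (chr14:45329587-45329615, plus strand): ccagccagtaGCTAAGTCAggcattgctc
Psmd12 (chr11:107479278-107479299, plus strand): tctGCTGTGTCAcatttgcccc
Psmd9 (chr5:123228149-123228177, plus strand): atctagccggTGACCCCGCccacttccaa
The element begins at position -47 in Psmb5, -9 in Psmb6, -227 in Psmc6, -247 in Psmd12 and -31 in Psmd9. The Psmd9 site lies inside the span of that gene in the GENCODE annotation (123169413 to 123250131). The RefSeq start used here for Psmd9 thus differs from the GENCODE start. None of these 5 genes was called in any comparison, and a match of letters is no measure of binding.

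All 7 constitutive beta genes were above 0 in KO-labelled against WT-labelled HSCs of both conditions. In stressed HSCs they ranged from 0.03 to 0.30 with a median of 0.08. In normal HSCs they had differences from 0.20 to 0.32 and a median of 0.26. An unadjusted p under 0.05 was reached by 5, against 13.9% of all genes, but none passed the adjusted threshold. In 6 of 7 the KO-labelled normal libraries lay entirely above the WT-labelled ones, against 10.9% of all genes. In stressed against normal KO-labelled HSCs they ranged from -0.04 to 0.21 with a median of -0.01, and in WT-labelled HSCs from 0.11 to 0.26 with a median of 0.16.

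Psmb3 (ENSMUSG00000069744.7, chromosome 11, 97703399 to 97713500, plus strand), a structural beta subunit without a cutting site, had log2 CPM of 7.27 and 7.20 in KO-labelled stressed, 7.24 and 7.17 in WT-labelled stressed, 7.31, 7.16 and 7.33 in KO-labelled normal and 6.99, 6.95 and 6.90 in WT-labelled normal libraries. Its WT-labelled normal libraries were below all 7 others. The difference of KO against WT in normal HSCs was 0.32 (limma SE 0.07, adjusted p = 0.054), outside the threshold except with a filter above 2, with library weights or without KO-labelled normal library B (adjusted p = 0.035), and stressed against normal in WT-labelled HSCs was 0.26 (limma SE 0.08, adjusted p = 0.12). Psmb5 (ENSMUSG00000022193.6, chromosome 14, 54614119 to 54618022, minus strand), which carries the chymotrypsin-like cutting site and is the main target of proteasome inhibitor drugs, had log2 CPM of 6.81 and 6.94 in KO-labelled stressed, 6.64 and 6.51 in WT-labelled stressed, 6.79, 6.54 and 6.68 in KO-labelled normal and 6.51, 6.36 and 6.55 in WT-labelled normal libraries. The 2 KO-labelled stressed libraries were the highest of all 10. Psmb5 had the smallest p of the 42 genes for KO against WT in stressed HSCs, and did not pass, at 0.30 (limma SE 0.12, adjusted p = 0.50).

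The immune core was represented by Psmb10 (ENSMUSG00000031897.9, chromosome 8, 105935735 to 105938444, minus strand), which replaces Psmb7 in the immunoproteasome. It had log2 CPM of 7.08 and 7.22 in KO-labelled stressed, 7.11 and 7.15 in WT-labelled stressed, 7.40, 7.23 and 6.97 in KO-labelled normal and 7.09, 7.02 and 7.27 in WT-labelled normal libraries. The groups overlapped in all 4 comparisons, and the KO-labelled normal group held both the highest of all 10 values (library A) and the lowest (library C). Its difference of KO against WT was 0.02 (limma SE 0.13, adjusted p = 0.99) in stressed and 0.07 (limma SE 0.11, adjusted p = 0.84) in normal HSCs. Stressed against normal was -0.05 (limma SE 0.12, adjusted p = 0.89) in KO-labelled and 0.00 (limma SE 0.12, adjusted p = 0.999) in WT-labelled HSCs. Per kb of exonic bases Psmb10 was above Psmb7 by 2.25 to 2.73 log2 units in the 10 libraries, and per kb of the longest coding transcript by 1.07 to 1.55. Psmb7 shares 405 exonic bases with Nek6 on the other strand, and since the strand setting of the counting is not given, reads there may belong to either gene. Of 6 interferon response genes (Irf1, Irf7, Isg15, Ifit1, Ifit3 and Gbp2) none was called in any comparison by limma. Their summed level was 400.2 to 432 CPM in KO-labelled stressed, 373 to 391 in WT-labelled stressed, 406 to 473 in KO-labelled normal and 423 to 434 in WT-labelled normal libraries.

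The 6 base ATPase genes encode the motor ring that unfolds substrates. In stressed against normal they ranged from -0.04 to 0.16 with a median of 0.08 in KO-labelled HSCs, and were all above 0, from 0.09 to 0.30 with a median of 0.27, in WT-labelled HSCs. KO against WT gave a range of -0.11 to 0.17 and a median of -0.03 in stressed HSCs, and of 0.02 to 0.30 and a median of 0.17 in normal HSCs. WT-labelled stressed library A was the highest library for this role, at 0.22 above the gene means, while library B of that group was at the gene means.

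Psmc1 (ENSMUSG00000021178.8, chromosome 12, 100110154 to 100123405, plus strand), an ATPase whose tail opens the gate of the core, had log2 CPM of 7.80 and 7.85 in KO-labelled stressed, 7.88 and 7.85 in WT-labelled stressed, 7.70, 7.63 and 7.65 in KO-labelled normal and 7.56, 7.65 and 7.61 in WT-labelled normal libraries. All 4 stressed libraries lay above all 6 normal ones. It rose in stressed WT-labelled HSCs, with a mean of 7.87 ± 0.02 (SD, n = 2) against 7.61 ± 0.04 (SD, n = 3) in normal ones, a difference of 0.26 (limma SE 0.06, adjusted p = 0.046). This call was lost in 16 of 20 alternative settings, among them leaving out any single library except KO-labelled normal library A (adjusted p from 0.052 to 0.216, the last without WT-labelled stressed library A). In KO-labelled HSCs its difference was 0.16 (limma SE 0.06, adjusted p = 0.18). Psmc6 (ENSMUSG00000021832.7, chromosome 14, 45329788 to 45349705, plus strand), another ATPase of the ring, had log2 CPM of 6.70 and 6.67 in KO-labelled stressed, 6.52 and 6.51 in WT-labelled stressed, 6.76, 6.69 and 6.72 in KO-labelled normal and 6.38, 6.37 and 6.53 in WT-labelled normal libraries. Its WT-labelled stressed libraries were at the level of the highest WT-labelled normal library, while both KO-labelled groups lay above them. The difference of KO against WT was 0.17 (limma SE 0.10, adjusted p = 0.66) in stressed and 0.30 (limma SE 0.08, adjusted p = 0.10) in normal HSCs.

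The 3 non-ATPase genes of the base taken by symbol differed between the normal groups by -0.04 to 0.05, with a median of 0.02. These were the smallest differences of any role with more than 1 gene. Psmd1 (ENSMUSG00000026229.17, chromosome 1, 86064387 to 86139151, plus strand), the large scaffold of the base, had log2 CPM of 8.36 and 8.30 in KO-labelled stressed, 8.17 and 8.20 in WT-labelled stressed, 8.04, 8.05 and 8.06 in KO-labelled normal and 8.05, 8.07 and 8.16 in WT-labelled normal libraries. The KO-labelled stressed libraries were the highest 2 of 10, followed by the WT-labelled stressed libraries, and the normal groups overlapped. Psmd1 rose in stressed KO-labelled HSCs, with a mean of 8.33 ± 0.05 (SD, n = 2) against 8.05 ± 0.01 (SD, n = 3) in normal ones, a difference of 0.28 (limma SE 0.06, adjusted p = 0.018), and in WT-labelled HSCs the difference was 0.09 (limma SE 0.06, adjusted p = 0.47). The call was lost without KO-labelled stressed library A (adjusted p = 0.151) or B (0.076). The interaction of Psmd1 was 0.19 (limma SE 0.08, adjusted p = 0.51), so the responses were not shown to differ. Psmd4 (ENSMUSG00000005625.15, chromosome 3, 95032694 to 95042614, minus strand), a ubiquitin receptor, had log2 CPM of 7.47 and 7.48 in KO-labelled stressed, 7.47 and 7.33 in WT-labelled stressed, 7.33, 7.22 and 7.35 in KO-labelled normal and 7.36, 7.18 and 7.22 in WT-labelled normal libraries. Its KO-labelled stressed libraries were above all 6 normal ones. Stressed against normal was 0.18 (limma SE 0.08, adjusted p = 0.30) in KO-labelled and 0.14 (limma SE 0.08, adjusted p = 0.43) in WT-labelled HSCs.

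The 8 lid genes taken by symbol were all above 0 in KO-labelled against WT-labelled normal HSCs, from 0.01 to 0.24 with a median of 0.17. In stressed against normal they ranged from -0.08 to 0.19 with a median of 0.04 in KO-labelled HSCs, and from 0.09 to 0.43 with a median of 0.16 in WT-labelled HSCs. None passed the adjusted threshold in any comparison by limma. Psmd14 (ENSMUSG00000026914.15, chromosome 2, 61711694 to 61800376, plus strand), the enzyme that cuts ubiquitin chains from substrates, had log2 CPM of 7.29 and 7.27 in KO-labelled stressed, 7.34 and 7.25 in WT-labelled stressed, 7.33, 7.05 and 6.93 in KO-labelled normal and 6.89, 6.93 and 6.77 in WT-labelled normal libraries. All 4 stressed libraries lay between 7.25 and 7.34, and among the normal libraries only KO-labelled library A reached that range. Stressed against normal in WT-labelled HSCs was 0.43 (limma SE 0.11, adjusted p = 0.066), and it passed without KO-labelled normal library A (adjusted p = 0.017) or C (0.048). Psmd6 (ENSMUSG00000021737.3, chromosome 14, 14112174 to 14120984, minus strand), a structural lid subunit, had log2 CPM of 7.09 and 7.18 in KO-labelled stressed, 7.30 and 7.37 in WT-labelled stressed, 7.29, 7.07 and 7.30 in KO-labelled normal and 7.02, 7.01 and 7.03 in WT-labelled normal libraries. KO-labelled libraries lay below WT-labelled ones in stressed HSCs, with a difference of -0.20 (limma SE 0.09, adjusted p = 0.58), and above them in normal HSCs, with a difference of 0.20 (limma SE 0.08, adjusted p = 0.27). The interaction did not pass, at -0.40 (limma SE 0.12, adjusted p = 0.34).

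**Figure D5:**
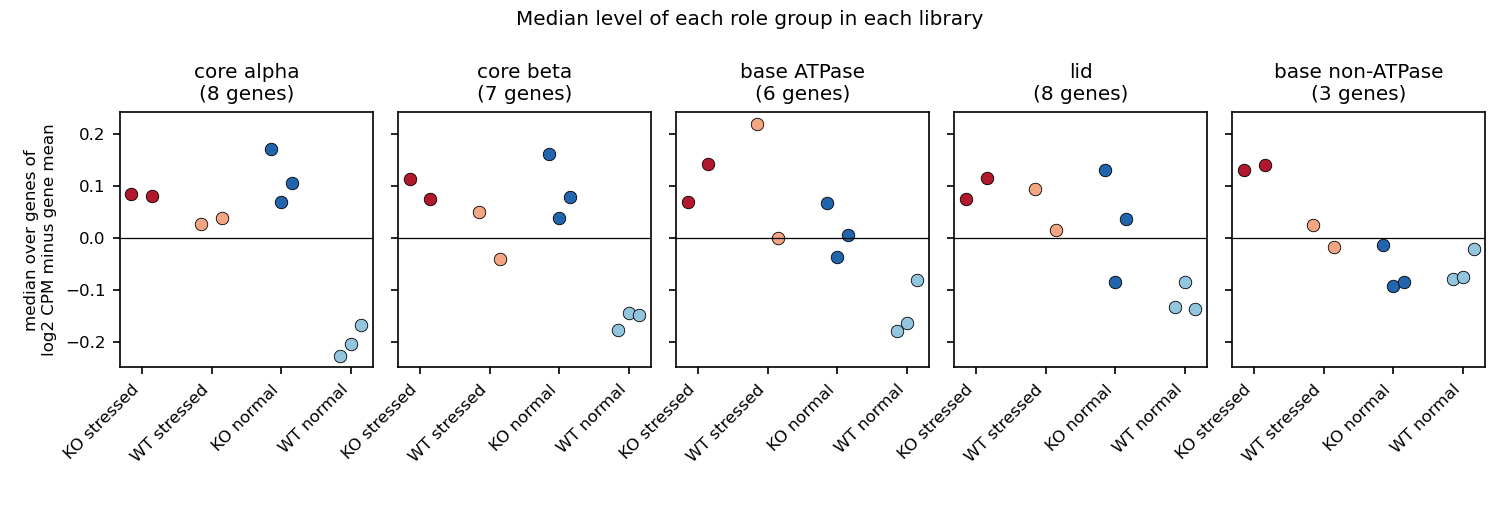
Each point is a library, placed at the median over the genes of a role of log2 CPM minus the gene mean over 10 libraries, for 5 roles with 3 to 8 genes. WT-labelled normal libraries are the lowest 3 in core alpha (down to -0.23), core beta, and base ATPase, while in base non-ATPase genes the normal groups overlap.

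The cap assembly chaperones bind base ATPases during assembly and leave before the cap is complete. Psmd10 (ENSMUSG00000031429.14, chromosome X, 140948429 to 140956728, minus strand), also known as gankyrin, had log2 CPM of 5.20 and 5.39 in KO-labelled stressed, 5.30 and 5.42 in WT-labelled stressed, 5.71, 5.50 and 5.43 in KO-labelled normal and 5.11, 5.03 and 5.22 in WT-labelled normal libraries. The KO-labelled normal libraries were the highest 3 of 10. KO against WT in normal HSCs was 0.43 (limma SE 0.12, adjusted p = 0.13), the largest difference above 0 of the 42 genes in that comparison, and did not pass. Stressed against normal was -0.25 (limma SE 0.14, adjusted p = 0.37) in KO-labelled and 0.24 (limma SE 0.14, adjusted p = 0.41) in WT-labelled HSCs, without overlap in either. Psmd9 (ENSMUSG00000029440.15, chromosome 5, 123169413 to 123250131, plus strand), another of these chaperones, had log2 CPM of 5.50 and 5.30 in KO-labelled stressed, 5.33 and 5.74 in WT-labelled stressed, 5.55, 5.63 and 5.76 in KO-labelled normal and 5.52, 5.47 and 5.57 in WT-labelled normal libraries. Stressed libraries of the KO-labelled group lay below the normal ones, with a difference of -0.25 (limma SE 0.14, adjusted p = 0.41), and the WT-labelled groups overlapped. Of the exonic bases of Psmd9, 25.5% are shared with the long noncoding gene Gm26745 on the other strand.

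Of the 5 activators, 4 were above 0 and 1, Psme4, below 0 for KO against WT in normal HSCs. None was called in any comparison by limma. Psme1 and Psme2 encode the partners of the interferon-inducible ring activator PA28. Psme1 (ENSMUSG00000022216.16, chromosome 14, 55578123 to 55581529, plus strand) had log2 CPM of 8.31 and 8.33 in KO-labelled stressed, 8.32 and 8.35 in WT-labelled stressed, 8.47, 8.35 and 8.35 in KO-labelled normal and 8.35, 8.23 and 8.25 in WT-labelled normal libraries. All 10 values lay within 0.24 log2 units, and KO against WT in normal HSCs was 0.11 (limma SE 0.05, adjusted p = 0.39). Psme2 (ENSMUSG00000079197.10, chromosome 14, 55587441 to 55591113, minus strand) had log2 CPM of 7.53 and 7.50 in KO-labelled stressed, 7.53 and 7.36 in WT-labelled stressed, 7.62, 7.50 and 7.40 in KO-labelled normal and 7.17, 7.08 and 7.25 in WT-labelled normal libraries. Its WT-labelled normal libraries were below all 7 others. KO against WT in normal HSCs was 0.34 (limma SE 0.08, adjusted p = 0.064), and stressed against normal in WT-labelled HSCs was 0.28 (limma SE 0.09, adjusted p = 0.13). Psme2b (ENSMUSG00000078153.3, chromosome 11, 48945354 to 48946190, minus strand) is 99.4% identical to Psme2 over 794 bases, so the split of reads between them is uncertain. It had log2 CPM of 3.97 and 4.08 in KO-labelled stressed, 3.97 and 3.97 in WT-labelled stressed, 3.98, 3.73 and 3.67 in KO-labelled normal and 3.57, 3.51 and 3.85 in WT-labelled normal libraries. Its groups overlapped in normal HSCs, where KO against WT was 0.15 (limma SE 0.17, adjusted p = 0.75).

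Psme3 (ENSMUSG00000078652.9, chromosome 11, 101316213 to 101323537, plus strand) encodes the nuclear activator ring, which works without ubiquitin on some regulatory proteins. It had log2 CPM of 8.38 and 8.33 in KO-labelled stressed, 8.40 and 8.25 in WT-labelled stressed, 8.28, 8.26 and 8.37 in KO-labelled normal and 8.22, 8.21 and 8.21 in WT-labelled normal libraries. The WT-labelled normal libraries were the lowest 3 by a small margin, and KO against WT in normal HSCs was 0.09 (limma SE 0.06, adjusted p = 0.52). Psme4 (ENSMUSG00000040850.17, chromosome 11, 30771726 to 30880361, plus strand) encodes PA200, an activator linked to the removal of acetylated histones. It had log2 CPM of 5.78 and 6.20 in KO-labelled stressed, 6.09 and 6.06 in WT-labelled stressed, 5.63, 5.82 and 5.74 in KO-labelled normal and 6.17, 6.13 and 6.07 in WT-labelled normal libraries. KO-labelled normal libraries lay entirely below WT-labelled normal ones, the only gene of the 42 in that position, with a KO-labelled mean of 5.73 ± 0.10 (SD, n = 3) against a WT-labelled mean of 6.12 ± 0.05 (SD, n = 3). That difference was -0.39 (limma SE 0.12, adjusted p = 0.15) and did not pass. The 2 KO-labelled stressed libraries were far apart, and KO against WT in stressed HSCs was -0.09 (limma SE 0.14, adjusted p = 0.91).

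Psmc3ip (ENSMUSG00000019303.14, chromosome 11, 101091823 to 101095436, minus strand) encodes a partner of the ATPase Psmc3 that acts in meiotic recombination. It had log2 CPM of 4.47 and 4.52 in KO-labelled stressed, 4.59 and 3.92 in WT-labelled stressed, 4.30, 4.27 and 4.18 in KO-labelled normal and 3.92, 3.99 and 4.17 in WT-labelled normal libraries. WT-labelled stressed libraries A and B differed by more than any 2 libraries of another group, and stressed against normal in WT-labelled HSCs was 0.23 (limma SE 0.20, adjusted p = 0.63). It shares 385 exonic bases with Mlx on the other strand. Without it each count above changes by at most 1.

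Genes that work with the proteasome were taken from lists by function. Among 20 measured assembly factors, cofactors and other partners of the proteasome (such as Pomp, Psmg1 and Usp14), none was called in any of the 5 tests by limma. Their median difference of KO against WT in normal HSCs was 0.13. This list holds subunits of the cap that the symbol rule does not take, Adrm1 of the base and Shfm1 of the lid. For KO against WT in normal HSCs they differed by -0.04 (limma SE 0.08, adjusted p = 0.87) and 0.32 (limma SE 0.07, adjusted p = 0.063). Among 11 measured genes of ubiquitin supply and of extraction by the ATPase VCP, 1 rose and 1 fell in KO-labelled normal HSCs. Rps27a, which encodes a fusion of ubiquitin and a ribosomal protein, rose by 0.60 (limma SE 0.06, adjusted p = 0.00059), and Nploc4, a cofactor of VCP, fell by 0.38 (limma SE 0.08, adjusted p = 0.043). None of the 11 was called in the other comparisons. Among 12 genes of the NRF1 and NRF2 axis, including both factors, Keap1 and Ddi2, only Hmox1, the heme-degrading enzyme, was called, and it rose in stressed KO-labelled HSCs by 0.82 (limma SE 0.19, adjusted p = 0.038). Their median difference was -0.01 for KO against WT in normal HSCs and 0.06 for stressed against normal in WT-labelled HSCs.

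Markers of other states also differed between the groups, in patterns of their own. Of 5 cycling genes (Mki67, Top2a, Ccnb1, Cdk1 and Mcm2), 5 rose in stressed KO-labelled HSCs and 4 in stressed WT-labelled HSCs. Their summed level was 1325 to 1413 CPM in KO-labelled stressed, 1234 to 1312 in WT-labelled stressed, 839 to 962 in KO-labelled normal and 931 to 993 in WT-labelled normal libraries. Both stressed groups were above both normal groups, whereas none of the 5 was called between the genotype labels by limma. Of 9 HSC markers, Kit fell in KO-labelled against WT-labelled normal HSCs, and the summed level was 3191 to 3297 CPM in KO-labelled stressed, 3474 to 3545 in WT-labelled stressed, 3394 to 3616 in KO-labelled normal and 3890 to 4147 in WT-labelled normal libraries. In stressed KO-labelled HSCs Hlf and Procr fell, and in stressed WT-labelled HSCs Hlf, Kit and Mecom fell and Cd34 rose. The summed level, in which Kit and Meis1 weigh most, was highest in the WT-labelled normal group, but not every marker was. The list includes Cd34 and Flt3, which are absent or low in long-term HSCs, so a rise of either is no gain of an HSC marker. Ly6a was at 7.19 to 7.35 log2 CPM in KO-labelled normal and 6.97 to 7.09 in WT-labelled normal libraries, and Cd34 at 8.48 to 8.58 in KO-labelled normal and 8.42 to 8.54 in WT-labelled normal ones.

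Of 10 granulocyte and monocyte markers, Mpo rose in KO-labelled normal HSCs and S100a8 and S100a9 fell in stressed KO-labelled HSCs. Their summed level was 389 to 394 CPM in KO-labelled stressed, 400 to 421 in WT-labelled stressed, 432 to 474 in KO-labelled normal and 341 to 379 in WT-labelled normal libraries, with up to 2 of the 10 at the lowest value in a library, among Csf1r, Ctsg, Elane, Ltf and Ngp. Of 6 plasma and B cell markers tested, Igkc and Jchain rose in KO-labelled against WT-labelled stressed HSCs and in stressed against normal KO-labelled HSCs. In these comparisons 4 and 3 of the 6 were above 0. Their list summed to 376 to 404 CPM in KO-labelled stressed, 220 to 244 in WT-labelled stressed, 251 to 279 in KO-labelled normal and 242 to 264 in WT-labelled normal libraries, with up to 3 genes (of Cd79a, Ebf1, Igkc and Mzb1) at the lowest value in a library. Xbp1, at 7.43 to 7.85 log2 CPM over all libraries, weighed most in these sums. Igkc was at 7.02 and 7.09 log2 CPM in KO-labelled stressed libraries and at most 0.58 in the others. Of 7 erythroid markers, Car1 fell in stressed HSCs of both labels and Hba-a1 in WT-labelled ones, with sums of 146 to 164 CPM in KO-labelled stressed, 106 to 116 in WT-labelled stressed, 204 to 211 in KO-labelled normal and 187 to 220 in WT-labelled normal libraries. Of 5 T and NK markers 2 were measured here. Nkg7 rose in stressed HSCs of both labels, while Klrb1c differed between stressed and normal by -0.61 in KO-labelled and -1.64 in WT-labelled HSCs and passed in neither (limma adjusted p = 0.66 and 0.17), with sums of 98.1 to 99.3 CPM in KO-labelled stressed, 110 to 121 in WT-labelled stressed, 62.4 to 68.3 in KO-labelled normal and 58.7 to 64.2 in WT-labelled normal libraries. The part of cycling, of HSC share and of these other cells in the proteasome differences was not tested.

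Copies and neighbours bear on some values. Of the 42 genes, 10 have a copy elsewhere that is at least 95% identical over at least 200 bases, of which 9 have a measured copy, and 12 share exonic bases with another gene at their own locus. Psma3 has a processed pseudogene, Gm13835, that is 100% identical over 665 bases and was measured at a mean log2 CPM of 0.99, and a second, Gm4742, at -1.85. The copy Gm9575 of Psmc1 was at -2.08. Psmd1 shares 3.47% of its exonic bases with Htr2b on the other strand and 4.14% with Gm21972 on its own. Whether this affects its call in stressed KO-labelled HSCs was not tested.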

How the data were processed

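RNA-seq libraries of sorted HSCs (10 in 4 groups, grouped by the labels) were analysed. Reads were aligned with Bowtie2 to mm10 and counted with featureCounts, per the submitters' processing notes, with versions, annotation and strand setting not given in the sources used here. The deposited values are log2 CPM: 2 to their power sums to 999085 to 999109 per library, and all libraries share nearly the same distribution from -5.90 upward, so the authors' table is quantile normalised, which fixes the scale to shares of a library and can shrink the spread of abundant genes. Limma voom is named by the name of the deposited table only. Depth was estimated from the spacing of low values that correspond to 10 to 100 whole reads.

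Genes above 0 in at least 2 libraries (15143) were fitted with limma 3.58.1 in R 4.3.3, with 4 group means over all 10 libraries, moderated variances that follow the mean level and 6 residual degrees of freedom. P-values were adjusted by Benjamini-Hochberg over all genes tested. The members and all lists were chosen with earlier results of these data known, and 2 genes of the marker lists are not reported here. Named with values in every library were members called in any test, the smallest p per role in KO against WT normal and in stressed against normal WT, the smallest p per comparison, the highest and lowest per length, all immune core and activator genes and Psmc3ip. Lengths and coordinates (counted from 1) came from GENCODE vM21 (20199 of 20270 identifiers matched, 16633 with the same version), promoters from RefSeq on GRCm38.p6, and identities from blastn 2.17.0. The model was also run on simulated data, drawn independently for each gene and library with the fitted spreads. Its assumptions hold there by design, so that run cannot test them on these libraries. Python 3.11.15 and matplotlib 3.10.9 drew the plots. Alternatives covered variance moderation, filters, a pseudocount of 1 CPM, median centring, library weights, a length trend, a replicate block, the libraries fitted, the threshold and leaving out each library. Leaving out both libraries that stood apart was added after seeing the data.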

Additional observations from a re-analysis of the deposited data

Results flagged for a closer look

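In 3 genes every library of one comparison moved one way and every library of the matching comparison the opposite way, which was 1 of 42 (2.38%) between genotype labels, against 2.67% of all genes, and 2 of 42 (4.76%) between conditions, against 2.75% of all genes. These shares are close to the background. Psmd6, a lid subunit, differed between KO-labelled and WT-labelled libraries by -0.20 in stressed HSCs and by 0.20 in normal HSCs. Its interaction had a limma adjusted p of 0.34. Psma3, an alpha ring subunit, differed between stressed and normal by -0.13 in KO-labelled HSCs and by 0.18 in WT-labelled HSCs, with an interaction adjusted p of 0.27. Psmd10, a chaperone of base assembly, differed between stressed and normal by -0.25 in KO-labelled HSCs and by 0.24 in WT-labelled HSCs, with an interaction adjusted p of 0.48. None of the 3 interactions passed the limma test over all genes.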

How the results depend on the processing

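Values were recomputed under 19 to 21 alternatives per result. Of 42 members, the 3 calls for KO against WT in normal HSCs became 7 at an adjusted p of 0.10, 5 with a filter above 2, 0 without the variance trend, and 2 to 5 without single libraries. Psma3 and Psma7 were lost only without the trend (adjusted p up to 0.105 and 0.099), and Psma2 in 6 of 20 (up to 0.125). The 1 call for stressed against normal in WT-labelled HSCs became 4 at 0.10 and 2 with the filter above 2 or library weights. It became 0 without trend, without filter, with the pseudocount and with the length trend removed. It was also 0 in a fit of the groups compared and with the replicate block. Leaving out a single normal library gave 0 to 2 calls, not always of the same gene. These were Psmc1 and Psmd14 without KO-labelled library A, Psmd6 without B, Psmd14 without C, and none without a WT-labelled one. The 1 call in KO-labelled HSCs became 0 without trend and in a fit of the groups compared, and 0 to 1 without single libraries. KO against WT in stressed HSCs and the interaction had 0 calls in every alternative. Calls over all genes moved as well. Under settings other than leaving out libraries they ranged from 45 to 275 for KO against WT in normal HSCs. For stressed against normal they ranged from 256 to 544 in WT-labelled and from 249 to 727 in KO-labelled HSCs. No count over all genes was made at 0.10, so the member counts at 0.10 have no background beside them.

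Without single libraries the medians ranged from -0.0027 to 0.052 for KO against WT in stressed HSCs and from -0.0081 to 0.062 for stressed against normal in KO-labelled HSCs. With the length trend removed the medians were 0.124 (KO against WT, normal), 0.120 (stressed against normal, WT-labelled) and -0.079 (interaction). Without single libraries these last 2 ranged from 0.147 to 0.209 and from -0.191 to -0.101, and without both libraries that stood apart they were 0.147 and -0.101. Psmb10 changed sign for KO against WT in normal HSCs at -0.041 (length trend) and -0.032 (without KO-labelled library A, alone or with WT-labelled stressed library A, in a range up to 0.185 without single libraries), and for stressed against normal in WT-labelled HSCs at -0.0087 (library weights), -0.107 (length trend), -0.021 (replicate block) and from -0.052 to 0.073 without single libraries. Psmd1 for KO against WT in normal HSCs was 0.0092 with the length trend removed. Psmc3ip for stressed against normal in WT-labelled HSCs was -0.106 without WT-labelled stressed library A, alone or with KO-labelled normal library A, in a range up to 0.562. The cause was not tested. Where leaving out a library left a group with 1 library, that library is assumed to vary like the other groups.

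Over all genes, the count called for KO against WT in normal HSCs (236) was 45 without trend and 129 to 238 without single libraries. The others ranged without single libraries from 12 to 58 (KO against WT, stressed, 22 in the model), 251 to 612 (stressed against normal, WT-labelled, 500), 278 to 681 (KO-labelled, 682) and 1 to 26 (interaction, 3). Libraries of the same letter did not deviate together from their group means (correlations -0.024 to 0.0375 over 13 pairs). In groups of 2 libraries the deviations mirror each other, so the 13 pairs are not separate checks. They cannot show whether a letter marks a shared animal or batch. With the letter as a replicate block 3, 0, 0, 1 and 0 members were called, so the call of Psmc1 was lost (adjusted p = 0.121). Depth does not limit these genes, all of which were above 3.51 log2 CPM in every library.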
